A study of Mus musculus with 7 samples.

Results

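Transcript levels of 6 mouse genes that mark neutrophils or the acute phase were followed in heart muscle: Cxcr2, Csf3r, Mmp9, Padi4, Lcn2 and Saa3. They were taken by symbol from a table of counts per gene, in which all 6 of 6 were found among 20343 genes. RNA came from the apical myocardium of NSG-DR1 mice, labelled as strain NSG-DRB1*0101, an immunodeficient strain that lacks its own T, B and natural killer cells, keeps neutrophils and macrophages, and carries a human HLA-DR1 molecule. The 4 control mice were untreated, and the 3 transferred mice had been given human CD4+ T cells 6 weeks before sampling. Every heart has its own animal identifier, while the age and sex of the mice, the cell donors and the dose are not given in the sources used here. The controls received no cells of any kind, so the transfer itself and the CD4+ T cells cannot be told apart.

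Neutrophils are short-lived phagocytes made in the bone marrow. CXCR2 is the receptor that guides them out of the marrow and into tissue along gradients of CXC chemokines, and the receptor for G-CSF, encoded by Csf3r, drives their production and survival. Once activated they release MMP-9, a gelatinase that cuts matrix proteins, and PAD4, encoded by Padi4, converts arginine to citrulline on histones during the formation of neutrophil extracellular traps. Lipocalin 2, from Lcn2, binds bacterial siderophores and serum amyloid A3, from Saa3, is an acute-phase protein made outside the liver. The last pair is also made by stromal, epithelial and mesothelial cells and macrophages, so neither is particular to neutrophils.

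Levels are given as CPM, the count of a gene divided by the size of its library, with library sizes scaled by the TMM method. Column totals over the analysed genes ran from 16402179 to 25190560, so 3 counts correspond to 0.115 to 0.189 CPM, a floor that covers counting error only. Cardiac identity was plain, since the 9 cardiomyocyte markers measured summed to between 113190 and 140350 CPM in every heart. The labels name no batch, but the animal identifiers begin with letters in control heart 1 and transferred heart 1 and are numbers in the other 5 hearts. The source label of transferred heart 2 also carries the code NK where those of transferred hearts 1 and 3 carry GP, and what the codes mean is not given, so the code and that heart cannot be told apart. Transferred heart 2 stood apart in many of the genes described here, and the members and gene lists are also given without it.

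The 250 bases before the RefSeq start site (GRCm38.p6) are shown for a receptor and for both acute-phase genes, because these members were high in the same heart and their windows hold different letters. Capitals mark GAGGAA, the core bound by the myeloid factor PU.1, or TTGCNNAA, a core bound by C/EBP factors, on either strand. The windows lie on the plus strand of chromosome 1 for Cxcr2 (chr1:74153744-74153993), and on the minus strand for Lcn2 (chr2:32387740-32387989) and Saa3 (chr7:46715677-46715926), and exons of GENCODE M21 transcripts of the same gene reach into each of them. The Saa3 window lies inside the span of the gene in the deposited table. So does the Csf3r window (chr4:126024409-126024658), which is not printed, and the Padi4 window reaches into the span of Padi4.
Cxcr2: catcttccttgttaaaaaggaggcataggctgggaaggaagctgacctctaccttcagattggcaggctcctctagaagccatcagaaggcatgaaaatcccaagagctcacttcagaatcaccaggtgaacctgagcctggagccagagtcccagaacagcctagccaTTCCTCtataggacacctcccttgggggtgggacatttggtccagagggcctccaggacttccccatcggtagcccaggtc
Lcn2: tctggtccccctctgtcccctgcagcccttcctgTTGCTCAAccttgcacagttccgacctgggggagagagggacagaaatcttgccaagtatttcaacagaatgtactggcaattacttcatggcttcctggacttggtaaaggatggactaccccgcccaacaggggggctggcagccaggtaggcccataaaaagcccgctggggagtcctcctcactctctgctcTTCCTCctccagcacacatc
Saa3: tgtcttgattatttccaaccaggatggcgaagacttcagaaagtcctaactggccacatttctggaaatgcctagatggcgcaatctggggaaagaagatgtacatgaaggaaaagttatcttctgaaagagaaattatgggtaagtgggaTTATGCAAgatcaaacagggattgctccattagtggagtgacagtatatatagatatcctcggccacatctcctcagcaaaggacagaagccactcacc
Windows were found for 5 of the 6 genes, Mmp9 being the other. GAGGAA was present at positions -81 to -76 in Cxcr2, at -20 to -15 in Lcn2 and at -86 to -81 in Csf3r, and 23.3% of 32851 such windows held it. TTGCNNAA was present at -216 to -209 in Lcn2 and at -99 to -92 in Saa3, and 9.56% of the windows held it. The Padi4 window held neither. The 3 other motifs searched for signalling or ETS factors, the NF-kB consensus (in 3.9% of windows), TTCNNNGAA for STAT factors (7.02%) and AGGAAGT (7.69%), were in none of the 5 windows. The looser C/EBP form TTNNGNAA, which overlaps the strict form, was in Lcn2 and Saa3 (36.8% of windows), and TATAAA was in Padi4 alone (12.4%). These matches describe letters and not occupied sites.

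Of the 6 genes, 5 had their highest level in transferred heart 2, where they stood between 1.88 and 8.98 times above the next heart, and Padi4 had its lowest level there. Transferred heart 3 held the next highest level of Cxcr2, Csf3r, Mmp9 and Saa3, and transferred heart 1 lay near the control hearts for most of them. No member passed the threshold of the edgeR quasi-likelihood test (Benjamini-Hochberg adjusted p under 0.05 over 7667 genes), which called 0.235% of all genes and, with transferred hearts higher, 0.13%. At an unadjusted p under 0.05 there were 4 of the 5 tested members, all higher in transferred hearts, against 12.4% of all genes and 7.17% that were higher. DESeq2 called 2 members, Cxcr2 and Csf3r (3.29% of genes called), and limma-voom called 0, with 2 at an unadjusted p under 0.05, against 11.8% of genes. In whole tissue, more cells of a type and more RNA per cell cannot be told apart.

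**Figure D1:**
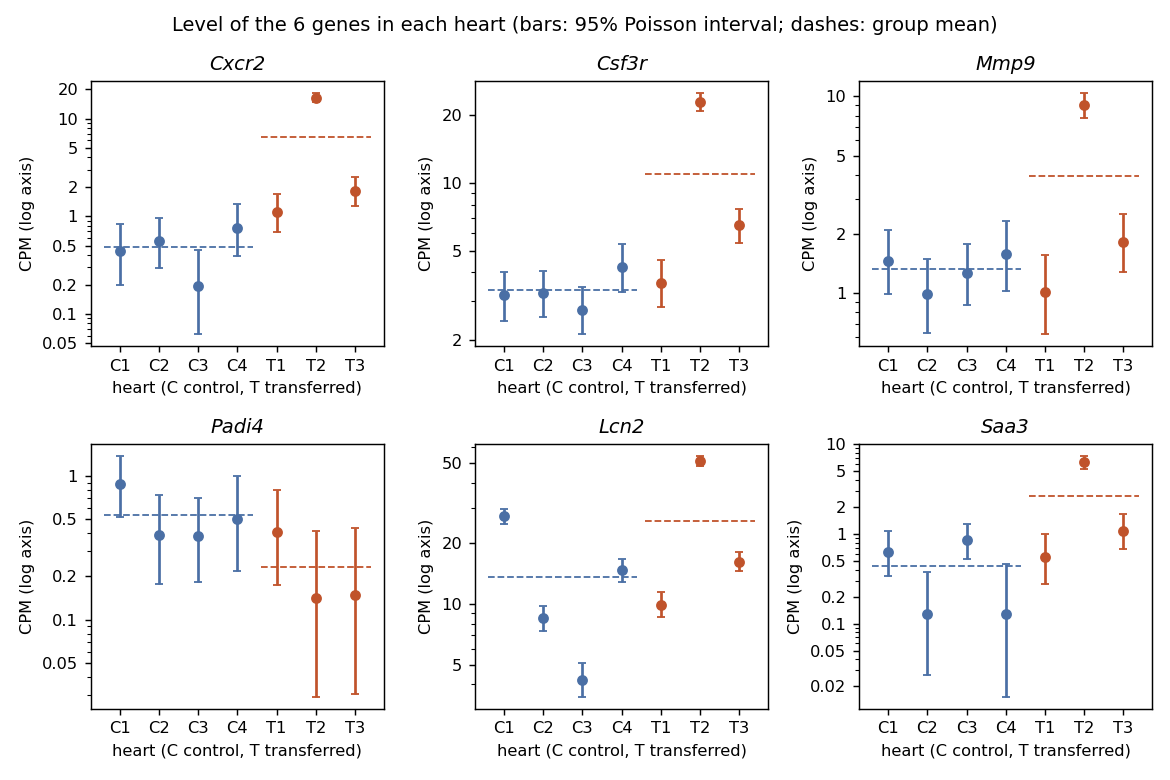
CPM of each gene on a log axis in the 4 control hearts (C1 to C4) and the 3 transferred hearts (T1 to T3), with exact 95% Poisson intervals for counting error and the group mean as a dashed line. T2 is the highest point for 5 genes and the lowest for Padi4, and the Cxcr2 points of T1, T2 and T3 all lie above the controls.

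Cxcr2 (GeneID 12765, chromosome 1, 74153994 to 74161246, GRCm38) was the member gene with the lowest level in control hearts for its length, and encodes the chemokine receptor. Its level was 0.438, 0.559, 0.192 and 0.757 CPM in control hearts 1 to 4, from 9, 13, 5 and 11.5 counts. In transferred hearts 1 to 3 it was 1.11, 16.4 and 1.83 CPM, from 22, 349 and 37 counts. Every transferred heart thus lay above every control heart, as was the case, with the transferred hearts higher, for 5.99% of the 7667 tested genes. The exact 95% Poisson interval of transferred heart 1 (0.698 to 1.69 CPM) took in the level of control heart 4, so that gap is within counting error, whereas that of transferred heart 3 (1.29 to 2.52 CPM) did not. Group means were 0.487 ± 0.236 CPM (SD, n = 4) and 6.45 ± 8.64 CPM (SD, n = 3). The log2 fold change was 3.77 with a standard error of 1.01 (edgeR adjusted p = 0.193; DESeq2 adjusted p = 0.0182).

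Csf3r (GeneID 12986, chromosome 4, 126023441 to 126044975) had a steadier baseline. Control hearts held 3.16, 3.23, 2.73 and 4.23 CPM. Transferred hearts 1 to 3 held 3.60, 22.95 and 6.47 CPM. Transferred heart 1 lay inside the control range and the other pair above it, so the groups overlapped. The log2 fold change was 1.73 with a standard error of 0.56 (edgeR adjusted p = 0.279; DESeq2 adjusted p = 0.0189). Csf3r was the member whose pattern followed Cxcr2 most closely, with a Pearson correlation of log2 CPM of 0.975 over the 7 hearts and 0.884 over the 6 hearts without transferred heart 2. Those for Cxcr2 with Saa3 were 0.746 and 0.0833.

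Ligands of CXCR2 were measured in the same table, which holds all 6 listed, of which 2 passed the filter on low counts and 0 passed the threshold. At an unadjusted p under 0.05 there was 1, higher, against 7.17% of all tested genes. Cxcl1, a CXCR2 ligand made by stromal and endothelial cells, was at 1.12, 1.08, 1.15 and 0.694 CPM in control hearts and at 1.06, 11.9 and 5.04 CPM in transferred hearts 1 to 3 (log2 fold change 2.55, SE 0.65, edgeR adjusted p = 0.165). Its order across the transferred hearts was that of Cxcr2, with heart 2 highest and heart 1 lowest. Unlike Cxcr2, the level of Cxcl1 in transferred heart 1 was among the controls. Without transferred heart 2 the log2 fold change of Cxcl1 was 1.58. Cxcl5 had 1, 1, 4 and 3 counts in control hearts and 3, 60 and 8 in transferred hearts, and was under the filter. Ppbp, the platelet chemokine, was at 34.7, 47.5 and 2.08 CPM in transferred hearts 1 to 3 against 1.07 to 12.97 CPM in control hearts (edgeR adjusted p = 0.463). It was thus high in transferred heart 1, where Cxcl1 was not, and low in transferred heart 3. Cxcl2 and Cxcl3 reached at most 12 counts in a heart, and Cxcl15 had none.

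Among other genes of G-CSF signalling, 4 of 11 listed were in the table and tested. The edgeR test called 0 of them, also at an unadjusted p under 0.05. The median log2 fold change was 0.09, against -0.002 over all tested genes. Jak1 and Lyn, kinases downstream of the receptor, had log2 fold changes of -0.16 and 0.12, and the transcription factor genes Cebpa and Cebpb had 0.30 and 0.058. The list median without transferred heart 2 was -0.078, and Lyn and Cebpb turned to -0.034 and -0.23. Of the other chemokine receptors, 3 of 16 listed were tested and 0 passed. At an unadjusted p under 0.05 there were 1 higher and 2 lower, against 12.4% of all tested genes in either direction. Cxcr4, the receptor that holds neutrophils in the marrow, stood at 13.8 to 25.1 CPM in control hearts and at 11.2, 13.5 and 7.16 CPM in transferred hearts, below every control (log2 fold change -0.86, SE 0.28, edgeR adjusted p = 0.264). Of all tested genes, 5.22% lay wholly lower in transferred hearts. Ackr1, the chemokine-binding receptor of venules, was at 0.252 to 0.430 CPM in control hearts and at 1.06, 5.55 and 1.78 CPM in transferred hearts (log2 fold change 2.90, edgeR adjusted p = 0.0702). The scavenger receptor Ackr3 had a log2 fold change of -0.37. In the 6 hearts other than transferred heart 2, Cxcr4 and Ackr1 had log2 fold changes of -1.07 and 1.93. Of the 3 receptors, 2 had an unadjusted p under 0.05 there, against 9.06% of all tested genes. Cxcr1, the nearest relative of Cxcr2, had 3 counts in transferred heart 2 and none elsewhere.

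Mmp9 (GeneID 17395, chromosome 2, 164940326 to 164955850) was far above the rest in transferred heart 2 only. Control hearts held 1.46, 0.990, 1.27 and 1.58 CPM. Transferred hearts 1 to 3 held 1.01, 9.03 and 1.83 CPM, so that heart 1 was within the control range. The log2 fold change was 1.59 with a standard error of 0.65 (edgeR adjusted p = 0.369). Of 22 other matrix metalloproteinases and their inhibitors on the list, 6 were in the table and 4 were tested, of which 0 passed. At an unadjusted p under 0.05 there was 1, lower, against 12.4% of all tested genes in either direction. The heart was not the highest of the 7 for any of those 6. Timp4, an inhibitor made in heart muscle, was at 41.5 to 69.1 CPM in control hearts and at 34.7, 67.4 and 29.1 CPM in transferred hearts, and Mmp23 was at 9.53 to 12.8 CPM and at 13.3, 11.4 and 10.8 CPM. The log2 fold changes of Timp4, Mmp23, Mmp17 and Mmp16 were -0.45, 0.054, -0.58 and 0.21. Timp4 had -0.91 without transferred heart 2.

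Padi4 (GeneID 18602, chromosome 4, 140745508 to 140774239) ran the other way. Control hearts had 18, 9, 10 and 8 counts, and transferred hearts 1 to 3 had 8, 3 and 3. These are 0.875, 0.387, 0.384 and 0.505 CPM against 0.405, 0.141 and 0.148 CPM. Transferred heart 2, with 349 counts of Cxcr2, had 3 counts of Padi4, and the exact 95% Poisson interval of that level (0.0291 to 0.412 CPM) takes in those of control hearts 2 and 3. The gene was under the filter on low counts. In the edgeR fit that kept all genes with at least 1 count its log2 fold change was -1.20 with a standard error of 0.63 (edgeR adjusted p = 0.595, where 0.668% of 12132 genes were called and 9.26% had an unadjusted p under 0.05). Padi2, the deiminase found in many tissues, was at 5.64, 2.75, 4.41 and 5.81 CPM in control hearts and at 2.08, 1.65 and 1.88 CPM in transferred hearts. Its groups did not overlap (log2 fold change -1.31, SE 0.29, edgeR adjusted p = 0.106), and 5.22% of tested genes lay wholly lower in transferred hearts. Padi3 was at 0.195 to 0.729 CPM in control hearts and at 0.296 to 0.706 CPM in transferred hearts, Padi1 had 1 count in all and Padi6 none.

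Of 49 other neutrophil genes listed, 26 were in the table and 17 were tested. None passed the threshold of the edgeR test, 13 had an unadjusted p under 0.05, all higher (7.17% of all tested genes), and the median log2 fold change was 1.47. Without transferred heart 2, 11 of the 17 had an unadjusted p under 0.05, all higher, against 9.06% of all tested genes in either direction. In that fit 0 passed the edgeR threshold and the median was 0.82. For 13 of the 17, transferred heart 2 was the highest of the 7 hearts, as it was for 17.5% of all tested genes. S100a8 and S100a9, which together encode calprotectin, an abundant cytosolic protein of neutrophils, were among them. S100a9 was at 2.46 to 5.38 CPM in control hearts and at 4.31, 137.8 and 16.9 CPM in transferred hearts 1 to 3 (log2 fold change 3.73, SE 1.14, edgeR adjusted p = 0.283). S100a8 was at 1.38 to 2.04 CPM and at 2.13, 72.3 and 9.63 CPM (log2 fold change 4.07). Both had the order of Cxcr2, with heart 1 near the controls and heart 3 between. Their log2 fold changes without transferred heart 2 were 1.42 and 1.82.

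Chil1, a chitinase-like protein of neutrophils and macrophages, was at 0.258 to 0.576 CPM in control hearts and at 1.42, 9.03 and 2.37 CPM in transferred hearts (log2 fold change 3.14, edgeR adjusted p = 0.0792). Alox5ap, which presents arachidonic acid to 5-lipoxygenase in myeloid cells, was at 15.2 to 16.8 CPM and at 29.6, 37.6 and 23.2 CPM (log2 fold change 0.91, edgeR adjusted p = 0.0515). The log2 fold changes of Chil1 and Alox5ap without transferred heart 2 were 1.97 and 0.72. In both genes all transferred hearts lay above all control hearts, as in 5.99% of all tested genes. Steap4 and G0s2, which other heart cells also express, had log2 fold changes of -0.053 and 0.38, and of -0.10 and 0.59 without transferred heart 2. Some neutrophil genes were under the filter, which asks for about 10 counts in 3 hearts, and had their highest count in transferred heart 2. Prok2, a chemoattractant peptide, had no counts in the control hearts and 0, 20 and 1 in the transferred hearts. Il1r2, the interleukin 1 decoy receptor, had 2 to 4 counts in control hearts and 1, 30 and 0 in transferred hearts, and the lectin receptor gene Clec4e had 2 to 8 counts in control hearts and 7, 106 and 21 in transferred hearts. The granule gene Fcnb had no counts in any heart. Ncf1, an NADPH oxidase subunit gene shared with macrophages, was at 7.75 to 10.6 CPM in control hearts and at 17.4, 19.9 and 13.1 CPM in transferred hearts (log2 fold change 0.89, SE 0.17, edgeR adjusted p = 0.0702).

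**Figure D2:**
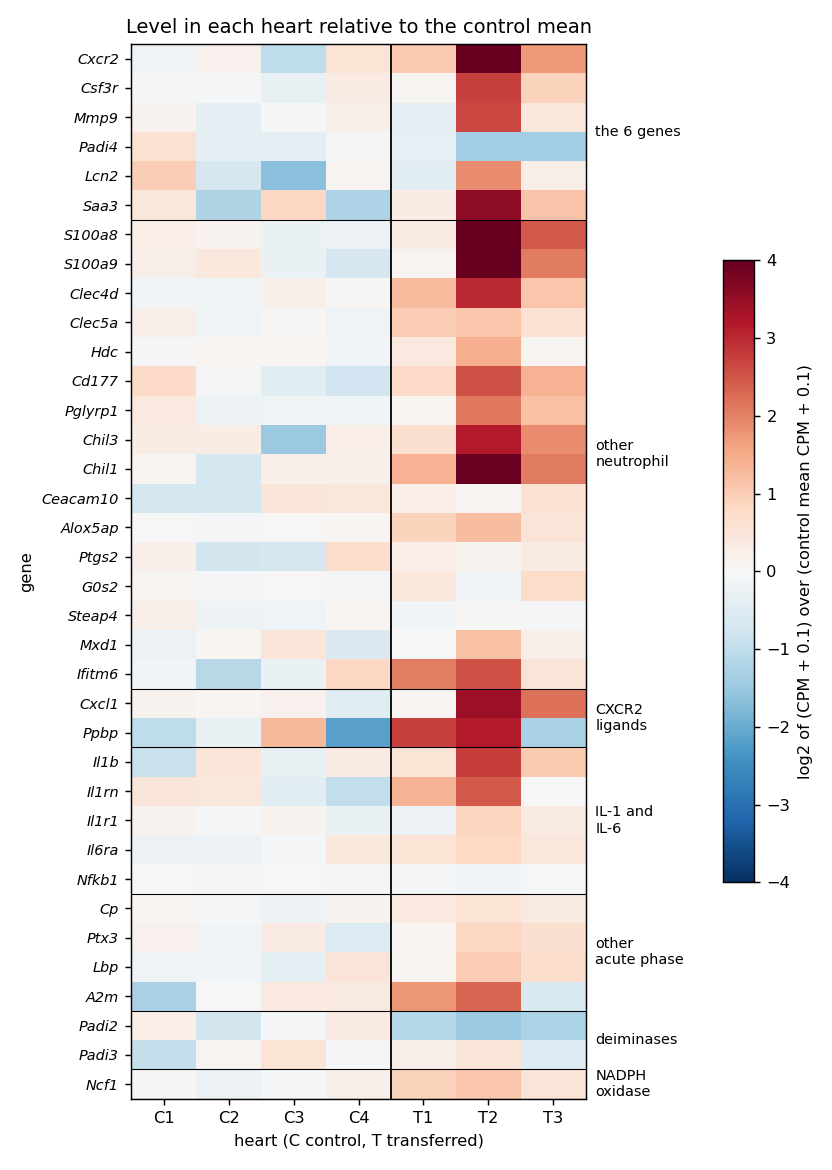
Colour gives log2 of the ratio of each heart's CPM to the control mean, with 0.1 CPM added to both, for the 6 genes and tested genes of 6 related lists (columns C1 to C4 control, T1 to T3 transferred; colours end at 4 in either direction). The darkest cells are in column T2, the column T1 is pale for Csf3r, Mmp9, S100a8, S100a9 and Cxcl1, and Padi4 and Padi2 are blue in all 3 transferred columns.

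Lcn2 (GeneID 16819, chromosome 2, 32384637 to 32387739) was the most abundant member, and its control hearts were uneven. Control hearts held 27.3, 8.52, 4.22 and 14.7 CPM. Transferred hearts 1 to 3 held 9.93, 51.2 and 16.3 CPM. Control heart 1 thus exceeded both transferred heart 1 and transferred heart 3, and the groups overlapped. Means were 13.7 ± 10.03 CPM (SD, n = 4) and 25.8 ± 22.2 CPM (SD, n = 3), and the log2 fold change of 0.93 (SE 0.79, edgeR adjusted p = 0.707) was close to its error. Transferred heart 2 was 1.88 times above control heart 1.

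Saa3 (GeneID 20210, chromosome 7, 46711998 to 46719615) was near zero in controls, with 13, 3, 22 and 2 counts, and transferred hearts 1 to 3 had 11, 133 and 22. These are 0.632, 0.129, 0.845 and 0.126 CPM against 0.557, 6.26 and 1.09 CPM. Transferred heart 1 lay within the controls, and the interval of transferred heart 3 (0.681 to 1.65 CPM) took in control heart 3. The log2 fold change was 2.54 with a standard error of 0.91 (edgeR adjusted p = 0.304). The liver-type relatives were close to absent, with at most 3 counts of Saa1 and at most 4 counts of Saa2 in a heart. How reads that match several of these related genes were counted is not given in the sources used here.

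Of 25 other acute-phase genes listed, 18 were in the table and 4 were tested, of which 0 passed the edgeR threshold (3 at an unadjusted p under 0.05, all higher, against 7.17% of all tested genes, median log2 fold change 0.61). With transferred heart 2 left out, 1 of the 4 had an unadjusted p under 0.05, against 9.06% of all tested genes, and the median was 0.41. For all 4 tested genes the highest of the 7 hearts was transferred heart 2. Cp, the copper-carrying ferroxidase ceruloplasmin, was at 305.8, 263.5, 245.3 and 309.4 CPM in control hearts and at 370.2, 413.3 and 361.5 CPM in transferred hearts (log2 fold change 0.44, SE 0.10, edgeR adjusted p = 0.106). Here every transferred heart lay above every control, as in 5.99% of all tested genes, and transferred heart 1 did not stand with the controls. Lbp, which carries lipopolysaccharide, was at 8.75 to 16.5 CPM and at 12.1, 23.4 and 18.97 CPM (edgeR adjusted p = 0.334). A2m, a protease inhibitor, and Ptx3, a soluble pattern receptor, had log2 fold changes of 1.67 and 0.56. Leaving out transferred heart 2, those of A2m and Lbp were 1.07 and 0.44, down from 1.67 and 0.66. The pentraxin gene Apcs and the fibrinogen genes Fga, Fgb and Fgg had no counts in any heart, and Crp had 3 counts in all, none in a transferred heart.

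Interleukin 1 and 6 induce acute-phase genes, and 5 of 13 genes listed for their signalling were tested. None passed the edgeR threshold, with 3 at an unadjusted p under 0.05, all higher, against 7.17% of all tested genes. Without transferred heart 2, 1 of the 5, Il6ra, had an unadjusted p under 0.05, against 9.06% of all tested genes. Il1b was at 0.778, 2.19, 1.23 and 1.96 CPM in control hearts and at 2.28, 11.1 and 3.31 CPM in transferred hearts (log2 fold change 1.86, SE 0.56, edgeR adjusted p = 0.221). Its transferred hearts lay above all controls, by little in heart 1, and 5.99% of all tested genes were separated in this direction. Il1rn, the interleukin 1 antagonist, and Il6ra, the interleukin 6 receptor, had log2 fold changes of 1.81 and 0.62, and Il1r1 and Nfkb1 had 0.39 and -0.050. The log2 fold change without transferred heart 2 was 0.87 for Il1b, 0.96 for Il1rn and 0.085 for Il1r1. Il6 itself had at most 13 counts in a heart.

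Divided by the combined exon length, which allows genes to be compared, the mean control levels were 16.04 CPM per kb for Lcn2, 0.570 for Csf3r, 0.553 for Saa3, 0.347 for Mmp9, 0.201 for Padi4 and 0.156 for Cxcr2. Below Lcn2 these levels were close, and the control hearts of Saa3 ranged from 0.161 to 1.08 CPM per kb, overlapping those of the other 4 genes. In transferred heart 2 the order on the same scale was Lcn2 at 60.1, Saa3 at 7.99, Cxcr2 at 5.26, Csf3r at 3.93, Mmp9 at 2.37 and Padi4 at 0.0527 CPM per kb. Cxcr2 thus went from the lowest of the 6 levels to the third. That heart held 85.5% of the Cxcr2 counts of the 3 transferred hearts, 80.1% of those of Saa3, 77.1% of Mmp9, 70.7% of Csf3r and 67.5% of Lcn2, against 21.4% of Padi4.

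Against all other tested genes, 4 members (Cxcr2, Saa3, Mmp9 and Csf3r) were at least 2-fold higher in transferred heart 2 than in every other heart, which held for 0.678% of the 7667 genes, or 52. At 4-fold there were 9 such genes (0.117%), and 3 of them were members. This heart was singled out after its values were seen, so these counts are a description. Transferred heart 1 had 34 genes that far above every other heart (0.443%), transferred heart 3 had 13 (0.17%) and each control heart had 2 or 3, with no member among them. Lcn2 missed that ratio through control heart 1.

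**Figure D3:**
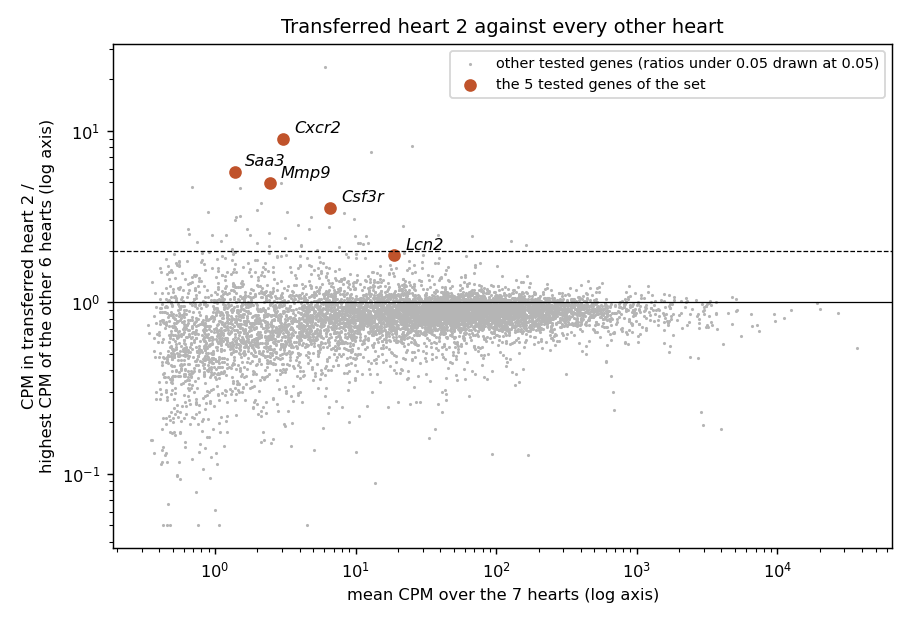
Each point is a tested gene, with its mean CPM over the 7 hearts on the x axis and the ratio of transferred heart 2 to the highest of the other 6 hearts on the y axis, both on log axes. Cxcr2 (8.98), Saa3 (5.76), Mmp9 (4.94) and Csf3r (3.55) lie above the dashed line at 2 and Lcn2 (1.88) just under it.

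Without transferred heart 2 the differences shrank. The log2 fold change was 1.63 for Cxcr2 (SE 0.52, edgeR adjusted p = 0.385), 0.60 for Csf3r (SE 0.29), 0.87 for Saa3 (SE 0.74), 0.11 for Mmp9 (SE 0.38) and -0.055 for Lcn2 (SE 0.72). Cxcr2 still had an unadjusted p of 0.0117 in that edgeR fit, which called 0 genes and had 9.06% of genes at an unadjusted p under 0.05. The mean of transferred hearts 1 and 3 was 3.02 times the control mean for Cxcr2, 1.90 times for Saa3, 1.51 times for Csf3r, 1.07 times for Mmp9, 0.957 times for Lcn2 and 0.515 times for Padi4. Padi4 kept its direction, with a log2 fold change of -0.94 (SE 0.65).

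**Figure D4:**
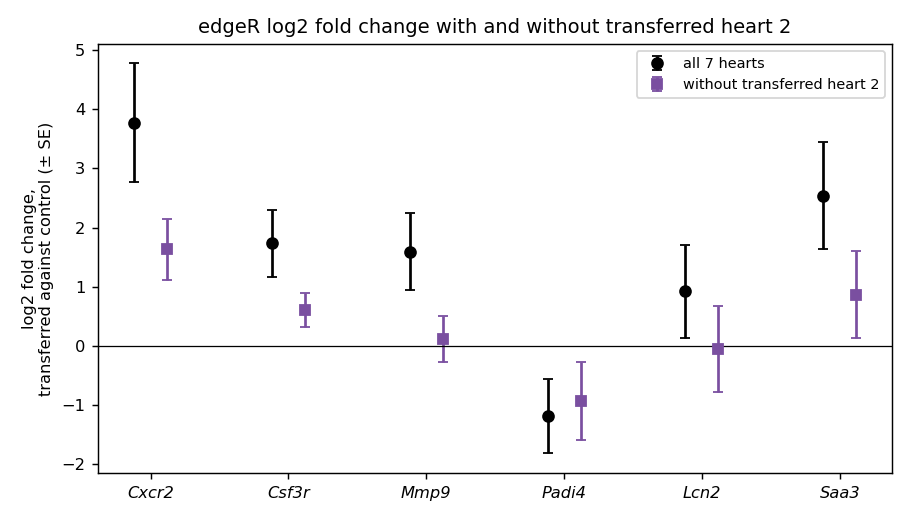
edgeR log2 fold change of transferred against control hearts with its standard error, from all 7 hearts (circles; for Padi4 from the fit of all genes with at least 1 count) and without transferred heart 2 (squares). The value of Cxcr2 moves from 3.77 to 1.63, Mmp9 and Lcn2 move to near 0 (0.11 and -0.055), and Padi4 stays below 0.

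Values were also read within each form of the animal identifier. Between the pair with letters, control heart 1 and transferred heart 1, Cxcr2 was at 0.438 and 1.11 CPM and Csf3r at 3.16 and 3.60 CPM, whereas Lcn2 was at 27.3 and 9.93, Mmp9 at 1.46 and 1.01 and Saa3 at 0.632 and 0.557 CPM, lower in the transferred heart. Among the 5 hearts with numbers, group means were 0.503 and 9.12 CPM for Cxcr2, 3.39 and 14.7 for Csf3r, 9.15 and 33.7 for Lcn2, 1.28 and 5.43 for Mmp9 and 0.367 and 3.67 for Saa3. Within those 5 hearts edgeR called 0 genes, with all 5 tested members and 13.6% of genes at an unadjusted p under 0.05. The letter form has 1 heart a group and no test, and the 95% Poisson intervals of its pair overlapped for Mmp9 and Saa3, so only for Lcn2 did that pair differ beyond counting error in the direction opposite to the number form. Padi4 was lower in transferred hearts in both, at 0.875 and 0.405 CPM and at 0.425 and 0.145 CPM. In an exact permutation test of the mean CPM over 35 splits, one gene at a time and unadjusted, the two-sided p taken as 2 times the smaller one-sided p was 0.0571 for Cxcr2, the smallest that this form can give. It was 0.114 for Csf3r, 0.171 for Padi4 and Saa3, 0.343 for Mmp9 and 0.4 for Lcn2, each an exact permutation p. Taken by the absolute difference, a form added after seeing the data, the exact permutation p was 0.0286 for Cxcr2, the smallest that form can give, and 0.0571 to 0.429 for the other 5 genes.

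Markers of other cells were read in the same hearts. The 2 other neutrophil markers in the table, S100a8 and S100a9, summed to 3.85 to 7.23 CPM in control hearts and to 6.43, 210.1 and 26.5 CPM in transferred hearts 1 to 3. Haemoglobin transcripts of red cells (Hbb-bs and Hbb-bt, 2 of 8 markers listed) summed to 3982 to 14679 CPM in control hearts and to 13106, 2736 and 3250 CPM in transferred hearts. Platelet markers (Pf4, Ppbp and Gp9, 3 of 5) summed to 21.9 to 38.1 CPM in control hearts and to 109.96, 146.3 and 27.7 CPM in transferred hearts, high in hearts 1 and 2. Macrophage markers (9 of 13) summed to 521.7 to 740.5 CPM and to 1116, 1236 and 873.5 CPM, with all 3 transferred hearts above the controls. Of these 9, 2 passed the edgeR threshold, C1qb and Mrc1, against 0.235% of all tested genes. All 9 were higher at an unadjusted p under 0.05, against 7.17% of all tested genes. Without transferred heart 2, 0 passed and 8 of the 9 had an unadjusted p under 0.05, against 9.06% of all tested genes. Mesothelial markers (4 of 7) summed to 14.1 to 42.2 CPM in control hearts and 22.5 to 30.7 CPM in transferred hearts, T cell markers (6 of 9) to 29.6 to 38.1 and 28.3 to 35.6 CPM, and markers of mast cells, basophils and eosinophils (6 of 10) to 46.3 to 56.1 and 34.5 to 46.4 CPM. Of the T cell markers, Cd28 had a mean of 27.5 CPM over the 7 hearts and Cd247 had 2.84. The strain lacks its own T cells and the transferred cells were human, so this sum is not read as a T cell level. Adipocyte markers (5 of 7) reached at most 4.36 CPM, in transferred heart 1. The part of blood, platelets and macrophages in the levels of the 6 genes was not tested.

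**Figure D5:**
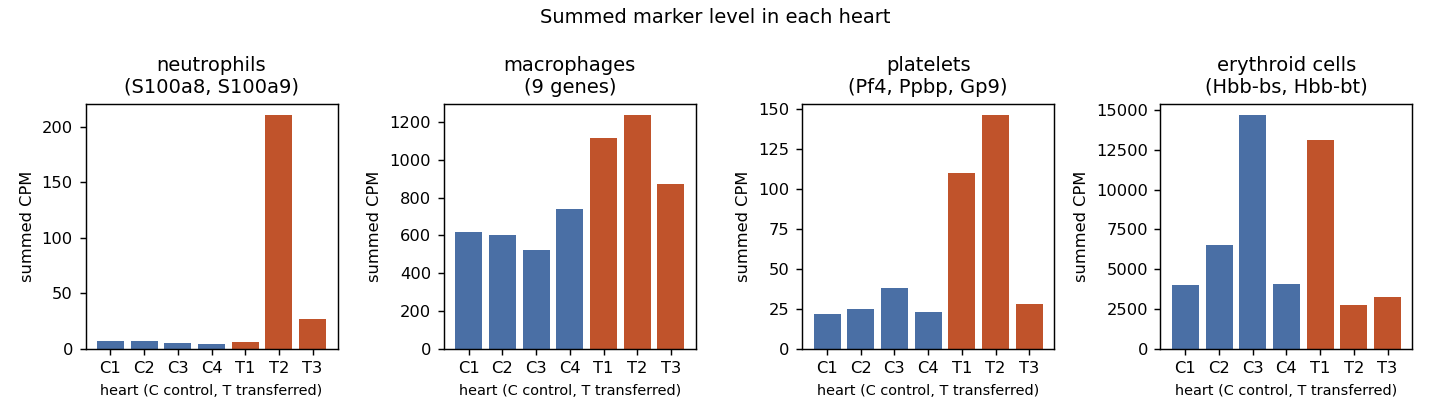
Summed CPM of the markers in the table for neutrophils (other than the 6 genes), macrophages, platelets and erythroid cells in each heart (C1 to C4 control, T1 to T3 transferred; bars start at 0). Neutrophil markers reach 210.1 CPM in T2 alone, macrophage markers are above the controls in T1, T2 and T3, and T2 has the lowest erythroid bar, at 2736 CPM.

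The genes whose pattern was most like the mean standardised log2 CPM of the 5 tested members over the 7 hearts, among genes with a mean of at least 1 CPM, began with Selp (Pearson r = 0.981). Selp encodes P-selectin, which captures leukocytes on activated endothelium. It was at 1.46 to 3.16 CPM in control hearts and at 3.19, 25.5 and 7.16 CPM in transferred hearts 1 to 3, in the order of Cxcr2. The next were Tinagl1 (0.979), Rfc2 (0.977), Slc52a3 (0.975), Gpr160 (0.975), Hpgds (0.975), Tmem176a (0.969) and Tmem200b (0.969). Hpgds, a prostaglandin D synthase of blood cells, was at 6.56 to 7.93 CPM in control hearts and at 7.24, 13.2 and 9.59 CPM in transferred hearts. Without transferred heart 2, only 2 of these 8 were still among the 8 most alike, so the likeness rests largely on that heart.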

How the data were processed

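RNA sequencing was done on polyadenylated RNA from 7 hearts, as paired-end reads of 75 nt. The authors deposited estimated counts per gene that were not normalized, of which 4.63% have a fractional part. The submitters' processing notes name cutadapt 2.5, STAR 2.7.2b, featureCounts 1.6.4, DESeq2 1.22.2 and GRCm38.p6, without roles or settings, and neither the use of strand in counting nor how reads from the human cells were kept from the mouse counts is given in the sources used here. The part of the table analysed here has 20343 complete rows and 1 unfinished row, left out, on chromosomes 1 to 7 and the start of chromosome 8. CPM values and scaling refer to that part, and other genes are not analysed here. Combined exon lengths are the authors' deposited values.

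Groups come from the treatment label, replicates are numbered in accession order, and columns were matched to samples by title. Same-group libraries differed by a chi-square of 17.4 to 77.2 per degree of freedom, beyond sampling noise. Counts were rounded, filtered with filterByExpr (7667 genes), scaled by TMM and tested with edgeR 4.0.16 (quasi-likelihood, robust) in R 4.3.3, after a check on simulated data. DESeq2 1.42.0 and limma-voom (limma 3.58.1), other scalings and filters, and left-out hearts were alternatives. Standard errors come from the F statistic. Overlapping genes on the other strand of Csf3r and Saa3 had at most 1 count in a heart. Named genes were all 6 members; from each list those past the threshold, the 4 most abundant and the 4 with the largest log2 fold change; the 8 genes most alike (log2 CPM, prior count 2); genes outside the rule are those under the filter, Hpgds as an example, and cell markers. The 6 members and all lists were chosen with earlier results of these data known. A few genes that the rule names are not reported here. Promoter windows are from RefSeq (GRCm38.p6).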

Additional observations from a re-analysis of the deposited data

Results flagged for a closer look

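The 4 control hearts were searched for a heart far from the other 3 in 47 genes named above, and 3 were found, where chance gives 2.35. Chil1 was at 0.258 CPM in control heart 2, against 0.535 to 0.576 CPM in the others. Cxcl1 was at 0.694 CPM in control heart 4, against 1.08 to 1.15 CPM in the others. Lyn was at 74.5 CPM in control heart 4, against 64.1 to 65.6 CPM in the others. None of the 6 members had such a control heart.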

How the results depend on the processing

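The count of 18 genes past the edgeR threshold became 35 with total count scaling, 81 with all genes that had at least 1 count and 252 with DESeq2. It became 0 with limma-voom, 0 with the identifier form as a covariate and 0 in the 5 hearts with number identifiers, with 907, 973 and 1054 genes at an unadjusted p under 0.05. Leaving out 1 heart gave 0 to 140 genes, with 140 without transferred heart 3, 27 without transferred heart 1, 1 without control heart 3 and 0 without any of the others. The number of members past the threshold was 0 in all of these except DESeq2, which gave 2, and the fits that left out 1 heart gave 0 to 0, with 1 to 5 members and 658 to 1140 of all tested genes at an unadjusted p under 0.05. For Lcn2 the direction turned without transferred heart 2, to a log2 fold change of -0.055 (from -0.055 to 1.52 with 1 heart left out) and a difference of mean CPM of -0.590 (exact permutation p = 0.933; from -0.590 to 20.1 with 1 heart left out). The log2 fold changes of the other members kept their sign in every alternative that tested them, from 1.63 to 4.27 for Cxcr2, 0.60 to 2.15 for Csf3r, 0.11 to 2.11 for Mmp9, 0.87 to 3.22 for Saa3 and -1.84 to -0.94 for Padi4, which only 4 fits tested. The lowest value of Cxcr2, Csf3r, Mmp9 and Saa3 was the one without transferred heart 2, and the cause was not tested. Of the 8 genes most alike, 8 and 7 were kept with prior counts of 0.5 and 5, and 2 without transferred heart 2. No paired analysis was possible because the labels do not pair hearts across the groups. The exact permutation p of Cxcr2, 0.0571 as 2 times the one-sided p, was 0.0286 by the absolute difference (a mean difference of 5.97 CPM in both). No other member crossed 0.05 in either form, and the first form cannot pass 0.05 with these group sizes. Counts of Padi4 (3 to 18 a heart) and of Saa3 in control hearts (2 to 22) limit what can be said of their differences.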

Other observations

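The 52 genes at least 2-fold higher in transferred heart 2 than in every other heart, read after their values were known, held other groups. Cxcl13, a chemokine that attracts B cells and follicular T cells, was the most extreme, at no more than 0.292 CPM in control hearts and at 0.962, 39.6 and 1.68 CPM in transferred hearts 1 to 3. Cxcl10, an interferon-induced chemokine, was at 0.689 to 1.14 CPM in control hearts and at 1.16, 5.36 and 0.741 CPM in transferred hearts, so that heart 3, second for Cxcr2, was within the controls. Sele and Vwf, genes of endothelial cells, were among them, while the 5 endothelial markers fixed as a list (Kdr, Tek, Emcn, Fabp4 and Aqp1) summed to 2775 to 3184 CPM in control hearts and to 2594, 2679 and 2381 CPM in transferred hearts 1 to 3, lower than in every control. Of the 5, Aqp1 passed the edgeR threshold, lower, against 0.235% of all tested genes in either direction. The log2 fold change was above 0 for 3 of the 5, the median was 0.00089, and 0 of the 5 passed without transferred heart 2. Sele, which encodes E-selectin, was at 1.02 to 2.19 CPM in control hearts and at 2.68, 18.2 and 5.83 CPM in transferred hearts, and Vwf, the von Willebrand factor gene, at 90.9 to 138.3 CPM and at 176.8, 380.6 and 159.2 CPM.

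Per2 and Ciart were also among the 52, as single genes and not as part of a list that was tested. Per2, a repressor in the circadian clock, was at 3.31 to 5.80 CPM in control hearts and at 4.25, 16.5 and 5.98 CPM in transferred hearts. Ciart, a clock-controlled repressor, was at 8.02 to 12.6 CPM in control hearts and at 6.53, 27.4 and 6.77 CPM in transferred hearts, with transferred heart 2 far above hearts 1 and 3. These genes were picked from the 52 after their values were seen.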
